A study of Mus musculus with 6 samples.

Results

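The transcripts described here are those of the hyaluronan system: the synthases Has1, Has2 and Has3, the hydrolases Hyal1 and Hyal2, the precursor enzyme Ugdh, the receptor Cd44, and the hyaluronan-binding proteins Tnfaip6 and Vcan. Members were taken by gene symbol: every probe that the platform annotation assigned to 1 of these 9 genes. Of 45281 probes on the array, 22 belonged to 7 of the 9 genes; Has3 and Tnfaip6 had no probe under those symbols in the annotation used and were not analysed here. Of the 22 probes, 8 (from 5 genes) were detected well enough to be tested, and the other 14 are accounted for below.

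All cells came from the stromal vascular fraction of epididymal fat, the tissue that remains once adipocytes are removed, of male mice 5 weeks of age carrying a Zfp423-GFP reporter. Cells were sorted as positive for PDGFRβ, a receptor of perivascular and other stromal cells, and negative for CD31 and CD45, which mark endothelial cells and leukocytes. This population was divided by GFP fluorescence into 3 GFP-positive and 3 GFP-negative samples, each measured on 1 Illumina bead array. The samples were described as biological triplicates; the sources used here do not say whether any pooled several animals or how the reporter was built.

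Hyaluronan is a long unbranched sugar chain of alternating glucuronic acid and N-acetylglucosamine that Has enzymes in the plasma membrane extrude directly into the pericellular space. Ugdh makes the glucuronic acid donor, the hexosamine pathway makes the other donor, and hyaluronidases cut the chain into fragments. Cells hold the polymer at their surface through receptors such as CD44, and proteoglycans such as versican, the Vcan product, bind it and build it into a hydrated matrix that in adipose tissue surrounds stromal cells and adipocytes.

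Promoter windows of the 250 bases upstream of the annotated start were available for 7 of the 9 members, not Has2 or Has3 (RefSeq, build GRCm38.p6). Shown here are the 3 windows of genes whose transcripts were lower in GFP-positive cells, so that the start regions of genes with the same direction can be compared. The Has1 window is chr17:17855189-17855438, the Cd44 window chr2:102901666-102901915 and the Vcan window chr13:89742513-89742762, all on the minus strand and written 5′ to 3′ along the gene. Capitals mark matches on either strand to motifs known from many vertebrate promoters. The first motif was the cAMP response element, with the letters TGACGTCA, which CREB family factors bind. The second was the AP-1 site, with the letters TGANTCA, which Fos and Jun proteins bind. The third was the GC box, with the letters GGGCGG, which Sp family factors bind. The fourth was the CCAAT box, searched as its name is spelt and bound by the NF-Y factor. The last was the TATA box, with the letters TATAAA, at which the basal transcription machinery can assemble.
Has1: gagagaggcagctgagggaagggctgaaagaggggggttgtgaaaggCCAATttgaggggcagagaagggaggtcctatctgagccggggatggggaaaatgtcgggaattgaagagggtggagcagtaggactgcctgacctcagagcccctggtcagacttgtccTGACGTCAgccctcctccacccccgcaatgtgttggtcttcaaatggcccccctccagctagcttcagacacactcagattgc
Cd44: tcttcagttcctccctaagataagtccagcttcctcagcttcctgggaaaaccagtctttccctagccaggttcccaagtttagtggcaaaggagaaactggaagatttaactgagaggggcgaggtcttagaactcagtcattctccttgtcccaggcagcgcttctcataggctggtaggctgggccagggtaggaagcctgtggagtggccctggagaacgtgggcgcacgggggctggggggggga
Vcan: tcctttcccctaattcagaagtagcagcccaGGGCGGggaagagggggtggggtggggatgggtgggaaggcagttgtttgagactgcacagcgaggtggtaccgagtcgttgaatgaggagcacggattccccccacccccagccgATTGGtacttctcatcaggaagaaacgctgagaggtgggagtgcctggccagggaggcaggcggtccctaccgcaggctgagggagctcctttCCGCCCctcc
The Has1 window held the cAMP response element letters once, beginning 83 bases before the start, and a CCAAT match beginning 203 bases before it. The Vcan window held GC box matches beginning 219 and 10 bases before the start and a CCAAT match 103 bases before it. The Cd44 window matched none of the letters searched. Of 32851 promoter windows of this length, 1.55% held the cAMP response element letters, 6.75% the AP-1 letters, 32.7% the GC box, 33.8% the CCAAT box and 12.4% the TATA box; no motif searched lies inside another. The 3 windows had no motif of this set in common; a match is a run of letters and not evidence of binding.

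Arrays were alike in brightness, with median raw signals between 145.8 and 162.0 and 13068 to 14026 probes detected per array (detection p under 0.01 against the array's negative controls). Pairs of arrays from 1 group correlated at 0.982 to 0.990 over the tested probes, and pairs from different groups at 0.948 to 0.960. Values below are background-corrected, quantile-normalized log2 signals, and differences are GFP-positive minus GFP-negative with limma's standard error (SE) and a p adjusted by Benjamini-Hochberg over all 13727 tested probes. An exact permutation test of 3 against 3 arrays cannot go below p = 0.1 (2-sided), so the calls rest on the limma fit. Its p-values set each difference against the spread of samples within the 2 groups, moderated towards the spread of all tested probes. Levels of different probes are not comparable, since each binds its target with its own strength.

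Among the hyaluronan genes, 4 of the 5 tested member genes were lower in GFP-positive cells (Has1, Has2, Cd44 and Vcan), none was higher, and Hyal2 did not pass the test. Of all 8819 tested genes, 15.8% passed the threshold of 0.05 in either direction, 7.17% passed it as lower and 8.65% as higher. The median difference of the 5 genes was -0.85 against -0.02 over all tested genes. Groups did not overlap for the same 4 genes, as was the case for 36.5% of all tested genes. The brightest probe of each of these genes was detected on all 6 arrays. In whole sorted samples, a smaller fraction of cells with a transcript and less of it per cell cannot be told apart.

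**Figure D1:**
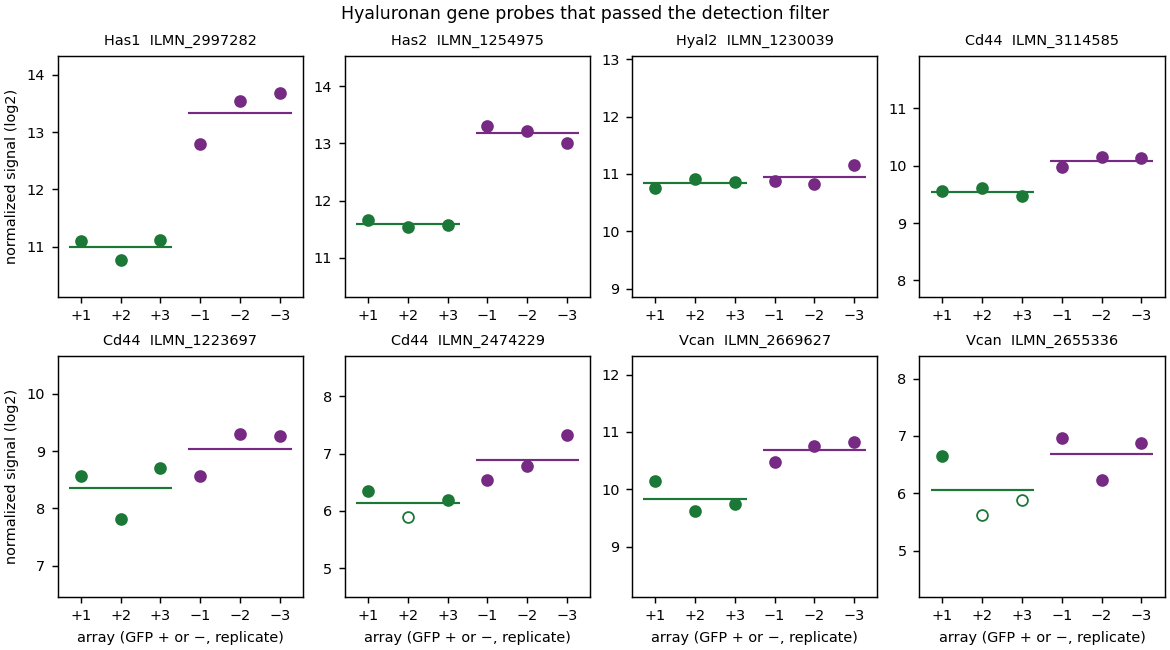
Normalized log2 signal of the 8 tested probes of the hyaluronan genes on each of the 6 arrays, 1 panel per probe, with GFP-positive and GFP-negative arrays side by side and a line at each group's mean. The Has1 and Has2 points of the 2 groups lie far apart, while those of Hyal2 overlap; levels cannot be compared between panels.

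Both synthases with a tested probe were lower in GFP-positive cells. Has1, which makes hyaluronan at the plasma membrane and is reported to be the least active of the synthases, read 11.11, 10.77 and 11.12 on GFP-positive arrays 1, 2 and 3 and 12.79, 13.55 and 13.68 on GFP-negative arrays 1, 2 and 3 (probe ILMN_2997282). Every GFP-negative array lay above every GFP-positive array, and GFP-negative array 1 was the lowest of its group. As deposited, before any normalization, the same probe gave signals of 2333, 1959.8 and 2440.8 in GFP-positive and 7081.6, 12016.2 and 13219.4 in GFP-negative cells. The difference was -2.34 ± 0.24 (SE, n = 3 per group; 95% interval -2.92 to -1.76; limma adjusted p = 0.00138), a 5.07-fold lower level. Ranked by difference, it was number 26 from the bottom of the 8819 tested genes, each given by its brightest tested probe. The second Has1 probe (ILMN_1228419) was detected on no array, so it neither repeats nor contradicts this value.

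Has2, the main synthase of most mesenchymal cells and the one required for heart development in the mouse, read 11.67, 11.54 and 11.58 in GFP-positive and 13.30, 13.22 and 13.01 in GFP-negative cells (probe ILMN_1254975, the sole Has2 probe). The arrays of a group lay closer to each other than for Has1, and the groups were again separate. Deposited signals were 3317.2, 3215.9 and 3332 against 10004.8, 9548.1 and 8432.3. The difference was -1.58 ± 0.12 (SE, n = 3; 95% interval -1.86 to -1.31; limma adjusted p = 0.000363).

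Titles of the samples open with 1 of 2 pairs of letters, RG (GFP-positive arrays 1 and 2, GFP-negative array 1) and KM (GFP-positive array 3, GFP-negative arrays 2 and 3), whose meaning the labels do not give. Within the RG samples the Has1 difference was -1.85 and within the KM samples -2.50; for Has2 these were -1.70 and -1.54. Both directions therefore held within each set of letters. With any 1 array left out, Has1 ran from -2.62 to -2.17 and Has2 from -1.66 to -1.53, and both stayed past the threshold each time.

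Hyal2, a membrane-anchored hyaluronidase that cuts the long polymer into intermediate fragments, read 10.76, 10.92 and 10.86 in GFP-positive and 10.88, 10.83 and 11.15 in GFP-negative cells (probe ILMN_1230039). The groups overlapped. The difference was -0.10 ± 0.12 (SE, n = 3; limma adjusted p = 0.621), with a 95% interval from -0.40 to 0.19. The falls of Has1 and Has2 lie outside this interval. Hyal1, a lysosomal hyaluronidase, had 2 probes, of which 1 was detected on GFP-positive array 3 alone and the other on no array. Ugdh, which oxidizes UDP-glucose to UDP-glucuronic acid, had 1 probe, detected on no array. Neither gene was tested, and a probe below background says nothing of whether the transcript was absent.

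Cd44, the widely expressed cell-surface receptor for hyaluronan, was lower on the brightest of its 9 probes. That probe (ILMN_3114585) read 9.57, 9.60 and 9.48 in GFP-positive and 9.97, 10.15 and 10.13 in GFP-negative cells. The groups were separate, with less than 1 log2 unit between the outermost arrays. The difference was -0.54 ± 0.10 (SE, n = 3; 95% interval -0.78 to -0.29; limma adjusted p = 0.0170), or 1.45-fold, with -0.39 within the RG and -0.66 within the KM samples. The call did not hold without GFP-negative array 2 (-0.50, adjusted p = 0.0749) or without GFP-negative array 3 (-0.51, adjusted p = 0.0666).

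The other Cd44 probes gave no second call. Probe ILMN_1223697 differed by -0.68 ± 0.29 (SE; limma adjusted p = 0.168) and ILMN_2474229 by -0.74 ± 0.22 (adjusted p = 0.0675). The latter passed the detection filter with 2 GFP-positive and 3 GFP-negative arrays. All 3 tested probes had the same sign, with spreads between arrays that differed. The remaining 6 probes were not tested: 5 were detected on no array and 1 on a single array. Which exons or isoforms each probe reads was not checked, and Cd44 is spliced in many forms.

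Vcan encodes versican, a large chondroitin sulfate proteoglycan whose amino-terminal domain binds hyaluronan. Its brighter tested probe (ILMN_2669627) read 10.14, 9.62 and 9.74 in GFP-positive and 10.48, 10.76 and 10.83 in GFP-negative cells. The highest GFP-positive array, number 1, lay below the lowest GFP-negative array, also number 1. The difference was -0.85 ± 0.17 (SE, n = 3; 95% interval -1.26 to -0.45; limma adjusted p = 0.0186), a 1.81-fold lower level, with -0.60 within the RG and -1.05 within the KM samples.

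The versican call was the least stable of the 4. It was lost without GFP-positive array 2 (-0.75, adjusted p = 0.0529), GFP-positive array 3 (-0.81, adjusted p = 0.0539), GFP-negative array 2 (-0.82, adjusted p = 0.0749) or GFP-negative array 3 (-0.78, adjusted p = 0.0714), with the sign kept. Without either of those GFP-negative arrays the count of lower member genes was 2 (Has1 and Has2) in place of 4. A second Vcan probe (ILMN_2655336), detected on 1 GFP-positive and 3 GFP-negative arrays, differed by -0.64 ± 0.31 (SE; limma adjusted p = 0.210). The other 4 Vcan probes were detected on no array. Over all 8 tested member probes 4 passed the threshold, each as lower, against 15.6% of all tested probes in either direction, 7.77% as lower and 7.85% as higher. Groups did not overlap on 5 of the 8 probes, against 36.3% of all tested probes.

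**Figure D2:**
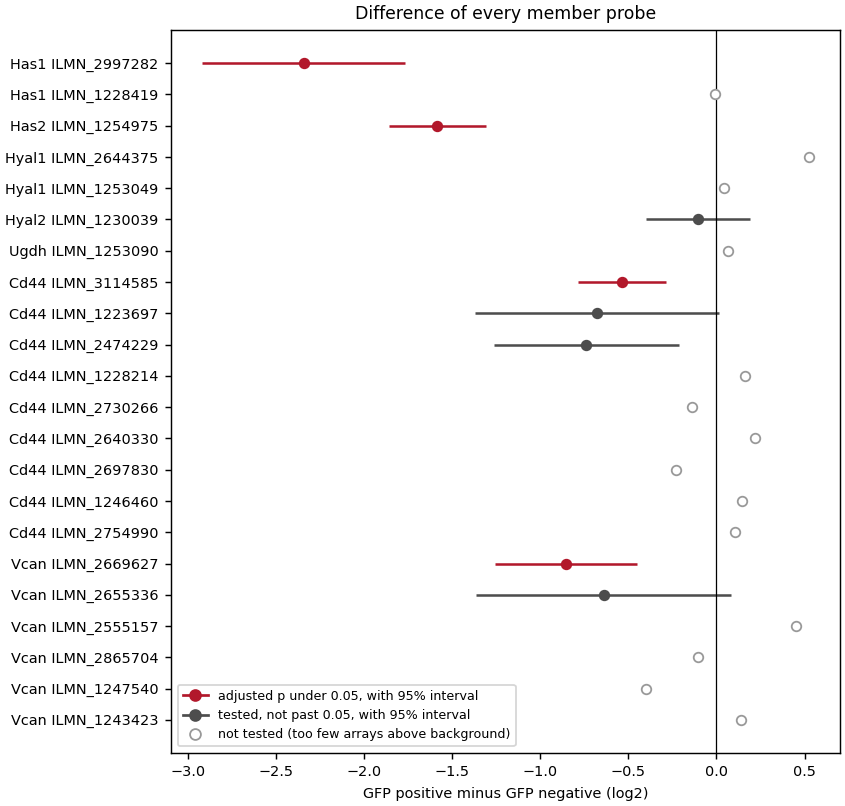
Difference between GFP-positive and GFP-negative cells (log2) for all 22 probes of the hyaluronan genes. The 8 tested probes are drawn with the 95% interval of the limma fit, in red where the adjusted p is under 0.05. The 14 probes not tested are open grey points without an interval. The intervals of Has1 and Has2 lie below -1, those of the brightest Cd44 and Vcan probes lie between -1.26 and -0.29, and the interval of Hyal2 spans 0.

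**Figure D3:**
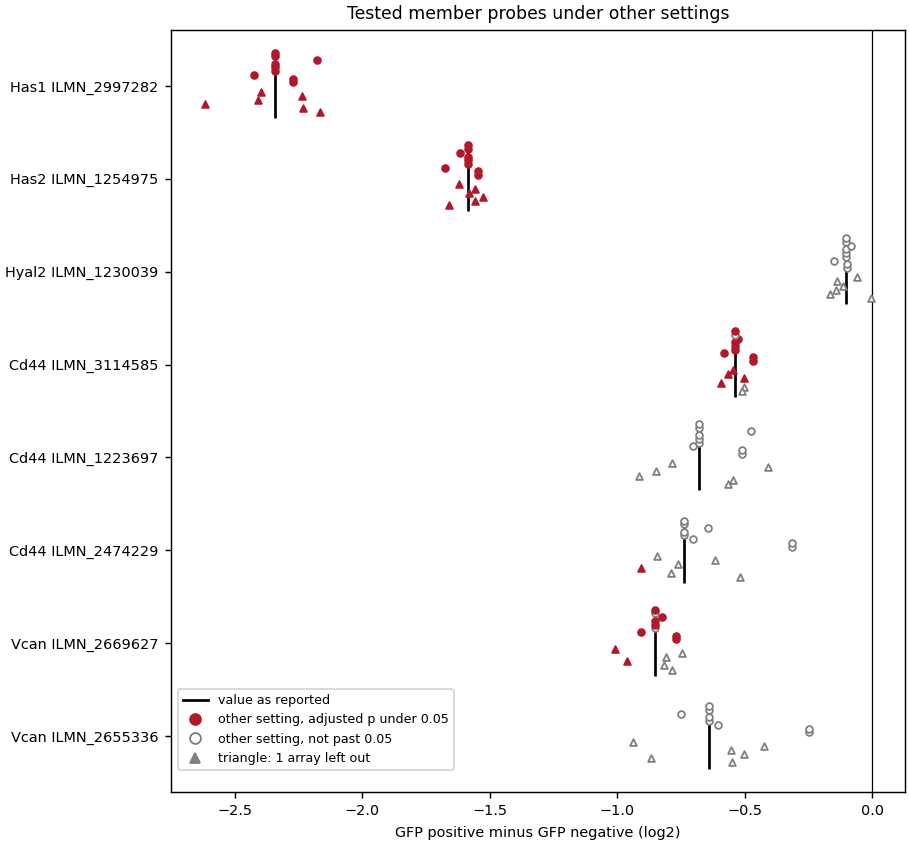
The same differences under other processing settings (circles) and with 1 array left out (triangles); filled marks have an adjusted p under 0.05 and black bars give the values as reported. Has1 and Has2 are filled throughout, while several marks of the called Cd44 and Vcan probes are open.

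Beyond the 9 members, genes that supply the sugar precursors were read next. Of 13 such genes, 11 were tested, 4 were lower in GFP-positive cells and none was higher, against 7.17% of all tested genes that passed as lower and 8.65% as higher. The median difference was -0.13, and groups did not overlap for 7 of the 11 genes, against 36.5% of all tested genes. Among these 7, Amdhd2 and Renbp were higher in GFP-positive cells, by 0.41 and 0.35, and the others lower. Neither Amdhd2 nor Renbp passed the test (limma adjusted p = 0.110 and 0.126). Gfpt2, which makes glucosamine-6-phosphate and is, with its paralog Gfpt1, the rate-limiting enzyme of the hexosamine pathway, read 13.34, 13.27 and 13.44 in GFP-positive and 14.44, 14.42 and 14.62 in GFP-negative cells. The 2 groups were clearly separate, and the difference was -1.14 ± 0.11 (SE, n = 3; limma adjusted p = 0.000991). Its paralog Gfpt1 differed by 0.08 ± 0.13 (adjusted p = 0.717), with overlapping groups.

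Further along the same route, Pgm3, which interconverts the phosphates of N-acetylglucosamine, was lower, with a difference of -0.64 ± 0.12 (SE; limma adjusted p = 0.0143), a call lost without GFP-negative array 3 (-0.61, adjusted p = 0.0582). Uap1, which makes the finished donor UDP-N-acetylglucosamine, read 11.81, 11.64 and 11.79 against 12.56, 12.95 and 12.76, a difference of -1.01 ± 0.13 (adjusted p = 0.00349). Ugp2, which makes UDP-glucose, the substrate of Ugdh, was lower, with a difference of -0.65 ± 0.12 (adjusted p = 0.0154). Together these enzymes cover steps towards both donor sugars, which cells also use for protein glycosylation.

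Nagk, which returns salvaged N-acetylglucosamine to the route, depended on the probe: the brightest differed by -0.34 ± 0.11 (SE; limma adjusted p = 0.0921), and of 3 dimmer probes 2 were lower, with differences of -0.53 and -1.12. Renbp, an epimerase that draws on N-acetylglucosamine, differed by 0.35 ± 0.13 (adjusted p = 0.126). Gnpnat1 and Slc35d1 were not tested for lack of detection.

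**Figure D4:**
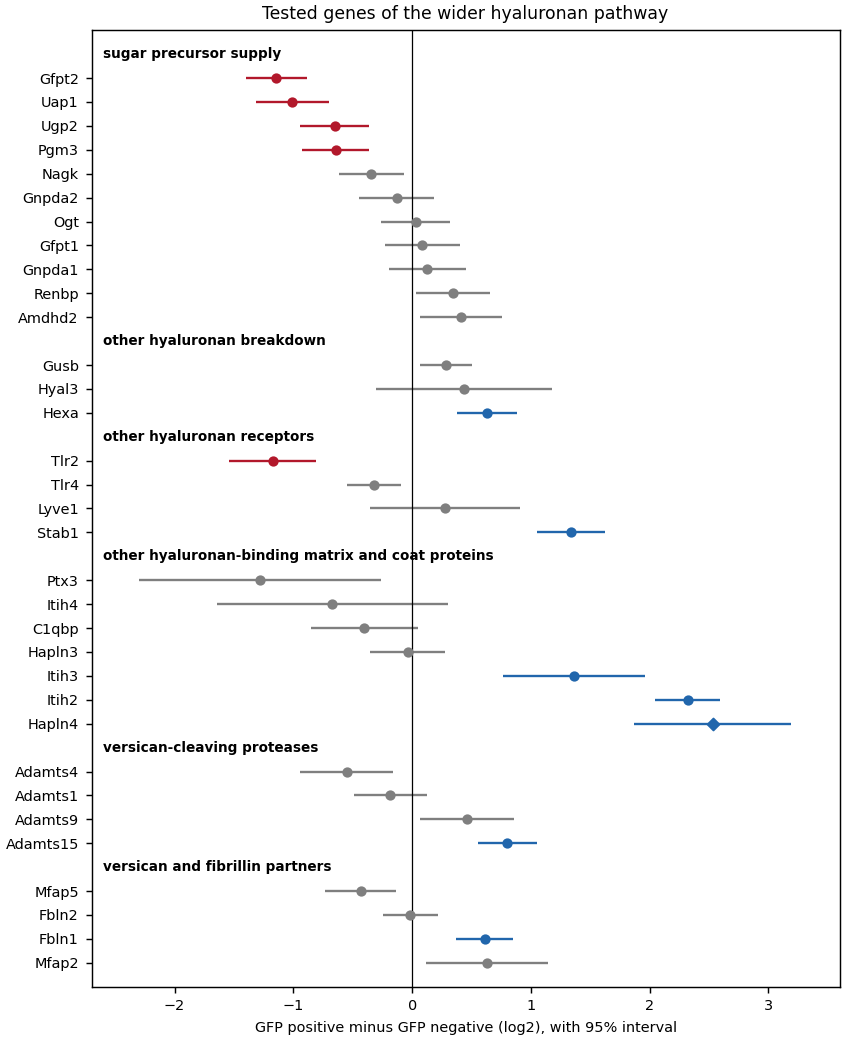
Differences between GFP-positive and GFP-negative cells (log2, with 95% intervals) for all tested genes of the wider hyaluronan pathway lists, grouped by role. Red marks genes that were lower, blue genes that were higher and grey genes not past the threshold. A diamond marks a gene not detected on any array of 1 group. Called precursor genes lie left of 0, and Itih2, Itih3 and Hapln4 lie right of it.

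Of 9 other genes of hyaluronan breakdown with a probe, 3 were tested and 1 was higher. For this list and those that follow, the share of all tested genes past the threshold in either direction was 15.8%, and with 3 to 7 tested genes a list, 1 called gene says little about a list. Hexa, a subunit of the lysosomal hexosaminidase that removes terminal sugars from hyaluronan fragments, read 13.28, 13.45 and 13.47 in GFP-positive and 12.82, 12.80 and 12.68 in GFP-negative cells. All GFP-positive arrays were above the others, and the difference was 0.63 ± 0.11 (SE, n = 3; limma adjusted p = 0.0101). Gusb, the lysosomal glucuronidase that acts in turn with it, differed by 0.28 ± 0.09 on its brightest probe (adjusted p = 0.0844); 1 of its 3 dimmer tested probes passed the threshold, at 0.47. Hyal3 differed by 0.44 ± 0.31 (adjusted p = 0.394). Cemip and Cemip2, which take part in breaking down extracellular hyaluronan, were not tested for lack of detection.

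Among 7 other hyaluronan receptors, 4 were tested. Tlr2, a pattern receptor reported to respond to hyaluronan fragments, read 10.60, 10.92 and 11.10 in GFP-positive and 11.89, 12.15 and 12.11 in GFP-negative cells. It was lower on every GFP-positive array, with a difference of -1.18 ± 0.16 (SE, n = 3; limma adjusted p = 0.00370). Tlr4 differed by -0.32 ± 0.10 on its brighter probe (adjusted p = 0.0661) and by -0.74 on a dimmer one, which passed the threshold (adjusted p = 0.0158). Lyve1, the receptor of lymphatic endothelium and some macrophages, differed by 0.27 ± 0.27 (adjusted p = 0.538).

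Stab1, a scavenger receptor of sinusoidal endothelium and macrophages, was higher on its brighter probe, with 10.67, 10.87 and 10.68 against 9.24, 9.47 and 9.49. The groups did not overlap, and the difference was 1.34 ± 0.12 (SE, n = 3; limma adjusted p = 0.000774). Its other tested probe differed by -0.22 ± 0.30 (adjusted p = 0.665), and the probes of this gene therefore disagreed. Leukocyte markers are given beside this value. Their summed level over 3 tested genes of 6 with a probe was 593 to 955 in GFP-positive and 149 to 192 in GFP-negative cells (linear scale). Of these, Lyz2 was higher by at least 6.96-fold (limma adjusted p = 0.000145) and Csf1r by at least 2.42-fold (adjusted p = 0.000375), where each bound is taken against the lowest detected signal of the GFP-negative arrays. Both were not well above background on any GFP-negative array and passed the detection filter through the GFP-positive arrays alone. These calls therefore carry no weight as a count, and neither does the summed level, which includes both genes. The fitted differences of Lyz2 and Csf1r were 3.97 and 1.36 (log2), and 2.06 and 0.63 without background correction, which is smaller than the bounds. The third, Cd14, differed by 0.42 (adjusted p = 0.305). Ptprc, Adgre1 and Itgam were detected on no array, and the part of such cells in the Stab1 value was not tested.

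Of 17 other hyaluronan-binding matrix and coat genes, 7 were tested, 3 were higher in GFP-positive cells and none was lower, with a median difference of -0.04. Itih2, a heavy chain of inter-alpha-trypsin inhibitor, which the Tnfaip6 product TSG-6 transfers onto hyaluronan, read 10.65, 10.35 and 10.62 against 8.21, 8.26 and 8.20. The groups were more than 2 log2 units apart and the difference was 2.32 ± 0.12 (SE, n = 3; limma adjusted p = 8.3e-05). Itih3, another heavy chain, was higher by 1.36 ± 0.25 (adjusted p = 0.0144), a value of 0.76 without background correction and a call lost without GFP-negative array 3 (1.29, adjusted p = 0.0588).

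Hapln4 is a link protein that steadies the bond between proteoglycan and hyaluronan and is known mainly from brain. With background correction it was higher by at least 2.26-fold, or 1.17 in log2 (limma adjusted p = 0.00177). Without that correction the difference was 1.09 (log2), which is smaller than this bound. Hapln4 was not well above background on any GFP-negative array and passed the detection filter through the GFP-positive arrays alone. Its count among the higher genes therefore carries no weight. Itih4 differed by -0.67 ± 0.41 (SE; adjusted p = 0.316). Ptx3, a pentraxin that crosslinks the hyaluronan matrix of the mouse cumulus, read 11.40, 11.46 and 12.66 in GFP-positive and 12.42, 13.69 and 13.26 in GFP-negative cells. GFP-positive array 3 lay above GFP-negative array 1, and the difference of -1.28 ± 0.43 did not pass the test (adjusted p = 0.0931). Hapln3 differed by -0.04 ± 0.13 (adjusted p = 0.883).

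Versican is cut by proteases of the Adamts family, of which 4 of 6 listed genes were tested and 1 was higher. Adamts15 read 10.69, 10.60 and 10.76 in GFP-positive and 9.99, 9.82 and 9.83 in GFP-negative cells. The groups did not overlap, and the difference was 0.80 ± 0.11 (SE, n = 3; limma adjusted p = 0.00364). Adamts4 differed by -0.55 ± 0.17 (adjusted p = 0.0683), Adamts9 by 0.46 ± 0.17 (adjusted p = 0.113) and Adamts1 by -0.18 ± 0.13 (adjusted p = 0.384).

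Among versican's partners in the fibrillin and fibulin matrix, 4 of 6 genes were tested and 1 was higher. Fbln1, a fibulin that binds versican, was higher on all 5 tested probes, with 0.61 ± 0.10 on the brightest (SE, n = 3; limma adjusted p = 0.00905) and between 0.92 and 1.45 on the others. Fbln2 differed by -0.02 ± 0.10 (adjusted p = 0.935), Mfap5 by -0.43 ± 0.13 (adjusted p = 0.0630) and Mfap2 by 0.63 ± 0.22 (adjusted p = 0.0997). Fbln1 and the brighter versican probe thus had opposite signs in these whole sorted samples. Whether the same cells carried both differences was not tested.

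Tested genes whose log2 values over the 6 arrays, centred on their own mean, lay nearest to each called member were named by Euclidean distance. For Has2 these were Tek, the angiopoietin receptor, at a distance of 0.24 log2 units, Hpse, the heparanase that cuts heparan sulfate, at 0.24, and Evi2a at 0.34. Tek read 11.73, 11.59 and 11.40 in GFP-positive and 13.28, 13.22 and 13.14 in GFP-negative cells. As for Has2, the groups were separate and tight, with a difference of -1.64 ± 0.12 (SE, n = 3; limma adjusted p = 0.000367). For Has1 they were Mcoln2 at 0.39, Cxxc4 at 0.52 and Fam167a at 0.53. The GFP-positive values of Mcoln2, Cxxc4 and Fam167a (5.00 to 5.76), and those of Evi2a (4.91 to 5.03), lay under the lowest detected probe of those arrays (6.06 to 6.35), so within that group the likeness is to background signal.

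For Cd44 the nearest genes were BC034090 at 0.09, the succinate dehydrogenase subunit gene Sdhd at 0.10 and Socs2, an inhibitor of cytokine signalling, at 0.10. For Vcan they were Sbsn at 0.19, Dcbld2 at 0.21 and Fbxo34 at 0.21. With 6 arrays in 2 groups, any gene with a like group difference and a like small spread comes out near, and these distances are a description.

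Other cell markers were set beside the members in the same samples. Stromal markers (Pdgfrb, Pdgfra, Col1a1, Col3a1 and Dcn) were detected on all 6 arrays, with summed levels of 69202 to 76137 in GFP-positive and 66423 to 74014 in GFP-negative cells; of the 5, Pdgfrb alone passed the test, higher by 0.58 ± 0.11 (SE; limma adjusted p = 0.0172). Markers of Dpp4-positive progenitors, a fibroblast-like stromal population of fat depots, had 7 of 7 genes tested. Of these, 5 were lower (Dpp4, Anxa3, Cd55, Limch1 and Sema3c), against 7.17% of all tested genes that passed as lower and 8.65% as higher. The sums of the 7 genes were 22768 to 34313 against 45716 to 47286, in the same direction as Has1, Has2, Cd44 and Vcan. Pi16, also on that list, differed by 0.44 (limma adjusted p = 0.0713), and Wnt2 by 0.02 (adjusted p = 0.976). Mural markers had 5 of 8 genes tested, with sums of 6118 to 9674 against 3266 to 4280. Most of these sums is Acta2, with group means of 12.59 and 11.64 (log2). The next highest group mean was 8.91, for Myh11 in GFP-positive cells. The 3 mural genes detected on all 6 arrays (Acta2, Myh11 and Notch3) were higher, against 8.65% of all tested genes. Abcc9 and Kcnj8, also in the sums, were past the threshold too but passed the detection filter through the GFP-positive arrays alone.

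Endothelial markers summed to 3266 to 3941 against 9523 to 10348 over 4 tested genes of 6, of which Tek alone passed the test. Most of these sums is Tek, with group means of 11.57 and 13.22 (log2). The next highest group mean was 8.21, for Pecam1 in GFP-negative cells. The median difference of the 4 was 0.10. Pecam1 differed by -0.41 ± 0.23 (SE; limma adjusted p = 0.291), Emcn by 0.74 ± 0.22 (adjusted p = 0.0657, groups not overlapping) and Cdh5 by 0.61 ± 0.31 (adjusted p = 0.239), and Tie1 was detected on no array. Mesothelial markers, set beside Has1 because mesothelium makes much hyaluronan, had 3 of 8 genes tested and 0 past the threshold in limma (0 also at an unadjusted p under 0.05), with overlapping sums of 535 to 2395 against 667 to 844; Krt19, Lrrn4 and Bnc1 were detected on no array. Of 5 adipocyte markers, Adipoq alone was tested, and it differed by 0.85 ± 0.52 (adjusted p = 0.326). The part of cell composition in the member values was not tested.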

How the data were processed

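The 6 arrays, 3 per group, were grouped and numbered from the sample titles. Per the file headers, the first table holds a linear intensity and a detection p-value for each probe and array, deposited before normalization. The authors' second table held intensity values with medians of 154.1 or 154.2 per array and a rank correlation of 1.000 with the first, and served as an alternative. The submitters' processing notes name GenomeStudio, with no version.

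Signals were processed in limma 3.58.1 (R 4.3.3) with neqc, which was given negative controls inferred from the deposited detection p-values and an offset of 16, normalized arrays by quantiles and returned log2 values. Probes with detection p under 0.01 on at least 3 of 6 arrays were fitted (13727 of 45281). The test was limma's lmFit with eBayes (2-sided); p-values were adjusted by Benjamini-Hochberg over those probes, with a threshold of 0.05. Each gene is given by its brightest tested probe, taken over all arrays. The fit was checked on simulated data. Symbols came from the platform annotation (34885 probes with 1 symbol, 18 with several, 10378 with none), and promoter windows from RefSeq, GRCm38.p6.

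The members, lists and tests were chosen with earlier results of these data known. Named genes were the members, all called list genes with up to 3 others per list (picked after their values were seen), and the 3 nearest genes per called member. Amdhd2 is named besides these, for the direction of its non-overlapping groups. Tek, Lyz2, Csf1r and other marker genes are named as markers. The replicate numbers showed no sign of pairing the samples: correlations of same-numbered deviations were -0.07, -0.20 and 0.07. Those of differently numbered arrays ran from -0.20 to 0.25, the highest for GFP-positive array 2 with GFP-negative array 1. The next highest was 0.16, for GFP-positive array 3 with GFP-negative array 2. In both of these pairs the titles open with the same letters and consecutive numbers, and a pairing by title order was not tested. The labels do not say whether samples came in pairs. Alternatives were the authors' table, leaving out the background correction, median scaling, 3 other detection filters, blocks for title letters and for replicate number, an intensity trend with a robust prior, each array left out, and gene means over probes; counts and values of the wider lists under them were added after seeing the data.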

Additional observations from a re-analysis of the deposited data

How the results depend on the processing

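The Has1 and Has2 differences kept their sign and stayed past the threshold under all 15 alternatives run on them, from -2.62 to -2.17 for Has1 and from -1.68 to -1.53 for Has2. Cd44 kept its call under 12 of 15 and Vcan under 9 of 15, with the sign kept in all; beside the arrays named above, Vcan lost it with no detection filter (adjusted p = 0.0509). With the replicate number as a block, which the numbers' correlations do not call for, 2 member genes passed the threshold in place of 4 (adjusted p = 0.0599 for Cd44 and 0.0623 for Vcan), Pgm3 did not (adjusted p = 0.0536), and 1421 probes passed in place of 2144. With 1 array left out the count of member genes ran from 2 to 4 and that of probes from 1070 to 1764; over all alternatives the latter ran from 1070 to 2553. The mean over a gene's probes called Has1, Has2 and Cd44, 3 genes. Counts of called list genes ran from 3 to 5 for precursor supply (4 as reported), 1 to 2 for breakdown (1), 2 to 3 for receptors (2), 2 to 4 for matrix and coat genes (3), 1 to 2 for proteases (1) and 1 to 2 for versican partners (1). Signs turned in genes near 0 that passed no test: Fbln2 was 0.0059 without GFP-positive array 3 and 0.021 without GFP-negative array 1, Gfpt1 was -0.0069 under median scaling, Hapln3 was 0.080 without GFP-positive array 1 and 0.0012 without GFP-negative array 3, and Lyve1 was -0.046 without GFP-positive array 3. With single arrays left out, Fbln2 ran from -0.045 to 0.021, Hapln3 from -0.12 to 0.080 and Lyve1 from -0.046 to 0.48. Hapln4 was 1.09 without background correction against a fitted 2.53. Signal near background limits the dimmer Cd44 and Vcan probes and leaves Hyal1 and Ugdh unmeasured, and 3 arrays per group limit the precision.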
